A study of Homo sapiens with 36 samples.

Results

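Glycolysis splits glucose into pyruvate in the cytosol, and pyruvate then either leaves the cell as lactate or enters the mitochondrion to be oxidised. Glucose is taken up by GLUT transporters, trapped by hexokinases, committed at phosphofructokinase and passed through the aldolase-to-pyruvate kinase steps of lower glycolysis. Lactate dehydrogenase and the monocarboxylate transporters then carry carbon out as lactate, while the mitochondrial pyruvate carrier, the pyruvate dehydrogenase complex and its inhibitory kinases set how much enters the mitochondrion, and the pentose phosphate pathway draws hexose phosphate away for NADPH and ribose. The 36 genes described here encode these steps and were named by symbol, and all 36 were found among the 29872 genes of the table by the Ensembl identifiers that GENCODE release 44 gives for them (build GRCh38, used for all gene positions below).

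The libraries came from LNCaP, a human line derived from a lymph node metastasis of prostate cancer, treated in culture with cyclin-dependent kinase inhibitors. AU2-94 and atirmociclib are described as selective for CDK4, and ribociclib inhibits CDK4 and CDK6. In the kinase assays of the study atirmociclib was more potent than AU2-94 against CDK6 and several other kinases of the family, among them CDK9. Total RNA was sequenced in 36 libraries in 12 groups, each with 3 biological replicates. After 24 h and again after 72 h there was a vehicle group, AU2-94 was given at 1 or 2 µM, as was atirmociclib, and ribociclib was given at 2 µM. In the labels both vehicle groups also carry a 2 µM dose, and the agent label was what made them vehicle here. All groups were the same parental line with no genetic change. Wells for the 72 h groups were seeded at a lower density than those for 24 h, so time and seeding density cannot be told apart.

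The deposited values are counts that the authors normalised with DESeq2, and they summed to 20675156 to 22692555 per library, with a median of 21490182.5. The 36 genes held 1.00% to 1.38% of that total. The luminal prostate markers KLK3 and KLK2 were abundant (mean normalised counts over the 36 libraries 36938 and 4889.6), whereas the 4 leukocyte markers summed to at most 7.56. Fibroblast markers summed to 215 to 658, mostly COL1A1, endothelial markers to 185 to 713, mostly VWF, and basal markers to 4.35 to 88.6, mostly KRT14. Library 3 of 2 µM atirmociclib, 24 h, stood apart, as the lowest of its group for 27 of the 34 genes tested here and for 18 of 19 hypoxia-inducible genes, against 33.9% of all genes. In each other treated group at 24 h there was likewise a library that was lowest for 15 to 17 of the 19 hypoxia-inducible genes and for 19 to 23 of the 34. At 72 h library 2 of ribociclib was lowest for 15 of the 19 and 20 of the 34, and library 1 of 2 µM atirmociclib for 14 and 20. No library of the other treated groups at 72 h was lowest for more than 10 of the 19. Changes without library 3 of 2 µM atirmociclib are given below for some genes. Those without the low libraries of the other groups are not given, so these values serve for no comparison between agents or doses. A lower level in bulk RNA can be fewer transcripts in each cell or fewer cells that express the gene, and these cannot be told apart here.

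Because several of these genes moved together, the sequences before their starts are shown for the 6 that passed the stricter call (adjusted p at most 0.05 and a log2 fold change of at least 1 in size) in at least 1 of the 10 comparisons with vehicle and have an entry in the RefSeq promoter table. A seventh, SLC2A3, is not in that table. Each is the 250 bases upstream of the RefSeq start, 5′ to 3′ on the gene's own strand, on GRCh38.p14, and capitals mark every ACGTG or GCGTG on either strand, the core of the hypoxia-response element to which hypoxia-inducible factors bind. CACGT and CACGC are the same letters read on the other strand, and CACGTG, the E-box, holds ACGTG on both strands. The windows lie at chr17:82228185-82228434 on the plus strand for SLC16A3, chr17:28576896-28577145 on the minus strand for ALDOC and chr3:48556804-48557053 on the minus strand for PFKFB4. They lie at chr12:6914330-6914579 for ENO2, chrX:78103998-78104247 for PGK1 and chr10:6144671-6144920 for PFKFB3, all on the plus strand. Only 1 start per gene was used, and other starts were not examined. The GENCODE gene models of SLC16A3, PFKFB4, ENO2 and PGK1 begin farther upstream, so that for these the window lies within the annotated gene. That of ALDOC begins at chr17:28576948, so that its window lies partly within the annotated gene.
SLC16A3: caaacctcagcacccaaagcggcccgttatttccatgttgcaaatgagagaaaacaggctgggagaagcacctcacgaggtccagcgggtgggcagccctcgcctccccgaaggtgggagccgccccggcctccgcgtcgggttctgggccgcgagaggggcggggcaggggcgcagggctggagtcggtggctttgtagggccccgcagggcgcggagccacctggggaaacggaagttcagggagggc
ALDOC: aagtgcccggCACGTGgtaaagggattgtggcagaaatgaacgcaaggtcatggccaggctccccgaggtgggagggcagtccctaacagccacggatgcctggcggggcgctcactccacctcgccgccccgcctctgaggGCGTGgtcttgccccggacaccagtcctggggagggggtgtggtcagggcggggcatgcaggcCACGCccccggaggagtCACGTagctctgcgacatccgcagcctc
PFKFB4: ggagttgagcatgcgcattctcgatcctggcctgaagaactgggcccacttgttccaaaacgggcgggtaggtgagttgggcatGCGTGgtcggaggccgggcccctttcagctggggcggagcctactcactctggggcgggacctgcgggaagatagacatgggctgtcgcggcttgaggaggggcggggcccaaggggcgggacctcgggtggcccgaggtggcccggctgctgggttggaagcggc
ENO2: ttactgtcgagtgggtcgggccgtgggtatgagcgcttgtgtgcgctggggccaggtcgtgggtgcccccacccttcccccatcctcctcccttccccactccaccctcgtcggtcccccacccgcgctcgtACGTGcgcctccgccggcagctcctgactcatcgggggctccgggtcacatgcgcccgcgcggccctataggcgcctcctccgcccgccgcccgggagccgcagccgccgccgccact
PGK1: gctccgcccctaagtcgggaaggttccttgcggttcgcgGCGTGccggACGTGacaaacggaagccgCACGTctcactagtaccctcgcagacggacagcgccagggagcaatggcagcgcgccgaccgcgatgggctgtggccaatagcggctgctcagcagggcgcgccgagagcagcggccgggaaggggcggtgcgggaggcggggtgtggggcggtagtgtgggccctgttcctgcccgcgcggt
PFKFB3: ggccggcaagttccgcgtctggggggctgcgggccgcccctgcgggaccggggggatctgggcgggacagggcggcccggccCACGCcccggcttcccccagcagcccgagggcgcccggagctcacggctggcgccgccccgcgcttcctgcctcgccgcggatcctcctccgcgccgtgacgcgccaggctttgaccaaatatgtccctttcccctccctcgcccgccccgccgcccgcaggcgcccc

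ALDOC held 5 matches, with first bases 240, 239, 108, 45 and 28 bases before the start, and the first pair is a CACGTG counted on both strands. PGK1 held 3, at 211, 202 and 183 bases before the start. PFKFB4, ENO2 and PFKFB3 held 1 each, and SLC16A3, the gene that changed most, held none in this window. Of the 33 genes with an entry, 18 (54.5%) held at least 1 match in the 250 bases, against 43.1% of the 27305 promoters in the table. With the 50 bases after the start included, the shares were 21 of 33 (63.6%) and 48.4%. The E-box alone was in 4 of the 33 and in 6.49% of all windows of 250 bases. These are counts of letters in short windows and say nothing of binding.

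The genes spanned a wide range of levels in vehicle-treated LNCaP cells. Per kilobase of exon, GAPDH led in vehicle at 24 h with 22106 ± 445 normalised counts (SD, n = 3), followed by TPI1 at 4353 ± 219, ALDOA at 3963 ± 145 and ENO1 at 3781 ± 185. Length here is that of the merged exons of all annotated transcripts of a gene, so the order depends on the annotation. PKM, with 8572 such bases against 2700 for TPI1, had the higher normalised counts of the 2 (20065 to 20786 against 11358 to 12435) but stood lower per kilobase. The ranges of ALDOA and ENO1 overlapped, and those of GAPDH and TPI1 did not. Among isoenzymes, LDHA (2266 ± 142) was ahead of LDHB (1783 ± 25.3), whereas ALDOC stood at 278 ± 42.1, far under ALDOA, and ENO2 at 42.4 ± 11.3, far under ENO1. The glucose transporter SLC2A1 stood at 201 ± 17.0 and SLC2A3 at 1.31 ± 0.232. Of the lactate transporters, SLC16A1 (MCT1) stood at 461 ± 74.2 and SLC16A3 (MCT4) at 1.13 ± 0.224. FBP1, which runs the phosphofructokinase step backwards, and PDK4 had normalised counts of 0 to 7.46 and 0 to 2.98 over the 36 libraries and did not pass the filter of at least 10 in 3 libraries, so 34 of the 36 genes were tested. SLC16A3 and SLC2A3 reached 10 in fewer than 3 vehicle libraries at each time and passed the filter through treated libraries. Exons of other genes of the table overlap those of 16 of the 36 genes on the opposite strand, by most in PDK2 (SAMD14, 2113 bases), PDHA1 (MAP3K15, 956), MPC2 (DCAF6, 575), ALDOA (520), PFKM (SENP1, 516), SLC2A1 (497), SLC16A3 (CSNK1D, 482), PDK1 (PDK1-AS1, 445) and GAPDH (422), and by 14 to 360 bases in PDHB, PFKFB2, ALDOC, FBP1, SLC16A1, ENO1 and TPI1. The strand setting of the counting is not given in the sources used here, so reads in these stretches cannot be told apart. On the same strand, where no strand setting tells reads apart, exons overlap those of ALDOA (ENSG00000285043, 1639 bases), PFKFB4 (UCN2, 298) and PGK1 (ATP7A, 97).

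Each treatment was compared with vehicle of its time point. After 24 h the genes that changed were almost all higher, led by SLC16A3, ALDOC, PFKFB4, PGK1 and, in some treatments, ENO2. After 72 h these were still higher, ENO2 again not in every treatment, while LDHB, the pentose phosphate gene PGD and, in some treatments, TKT, MPC2, PDHA1 and TALDO1 were lower than vehicle. A gene passed the test at an adjusted p of at most 0.05 over all genes tested (16137 at 24 h and 16341 at 72 h), and the shares of all genes that passed are given beside each count. At 24 h, 16 of the 34 genes were higher (47.1%) and 1 lower with 1 µM AU2-94, against 14.3% of all genes higher and 13.5% lower. Treatment with 2 µM AU2-94 gave 22 higher (64.7%) and 0 lower, against 16.0% and 14.9%. With 1 µM atirmociclib 24 were higher (70.6%) and 0 lower, against 16.6% and 15.4%. This was the largest of the 24 h counts, but the counts rank neither agents nor doses, which are compared directly below. At 2 µM atirmociclib gave 19 higher (55.9%) and 0 lower, against 18.6% and 16.2%. The 19 became 23 without library 3 of that group, 13 without its library 1 and 16 without vehicle library 1 or vehicle library 3. Ribociclib gave 16 higher (47.1%) and 0 lower, against 16.8% and 15.2%. The 16 became 8 without ribociclib library 3, 10 without vehicle library 1 and 9 without the variance trend. The medians over the 34 genes were 0.27 and 0.37 (AU2-94), 0.38 and 0.34 (atirmociclib) and 0.24 (ribociclib) on the log2 scale, and the medians over all genes lay within 0.005 of 0.

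After 72 h, 1 µM AU2-94 left 15 of the 34 genes higher (44.1%) and 6 lower (17.6%), against 15.4% and 17.0% of all genes. Treatment with 2 µM AU2-94 left 17 higher (50%) and 6 lower (17.6%), against 14.2% and 15.3%. Treatment with 1 µM atirmociclib left 15 higher (44.1%) and 4 lower (11.8%), against 20.0% and 19.8%. With AU2-94 the share of lower genes was thus near that of all genes, and with atirmociclib under it. Treatment with 2 µM atirmociclib left 16 higher (47.1%) and 3 lower (8.82%), against 20.9% and 19.6%. Ribociclib left 17 higher (50%) and 3 lower (8.82%), against 15.5% and 15.4%. The medians over the 34 genes were 0.12 and 0.16 for AU2-94, 0.21 and 0.27 for atirmociclib and 0.21 for ribociclib.

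The stricter call, which also asks for a log2 fold change of at least 1 in either direction, was met by 4, 6, 6, 3 and 2 genes at 24 h in the order 1 and 2 µM AU2-94, 1 and 2 µM atirmociclib and ribociclib, all higher, against 1.61%, 2.08%, 1.50%, 1.26% and 1.39% of all genes, and against 2.40%, 2.94%, 4.22%, 4.82% and 3.66% that were lower by as much. At 72 h it was met by 4, 5, 4, 3 and 4 genes in the same order, again all higher, against 3.51%, 3.02%, 4.06%, 3.87% and 2.95% higher and 0.869%, 0.838%, 2.67%, 3.67% and 1.54% lower. SLC16A3 and ALDOC met it in all 10 comparisons, PFKFB4 in 9, ENO2 in 5, PGK1 in 3, and PFKFB3 and SLC2A3 in 2 each. In 11 of the 34 genes all 15 treated libraries lay above all 3 vehicle libraries at 24 h, against 11.0% of all genes, and in none did they all lie below, against 10.7%. The 11 were HK1, PFKFB4, ALDOA, ALDOC, GAPDH, PGK1, SLC16A3, MPC1, MPC2, PDHB and TALDO1. At 72 h 11 genes again lay wholly above (GPI, PFKL, PFKFB3, PFKFB4, ALDOA, ALDOC, PGK1, PKM, LDHA, SLC16A3 and PDK1), against 9.96%, and LDHB and PGD wholly below, against 11.3%. SLC16A3 and SLC2A3 are among the genes counted here, and both passed the filter only through treated libraries, where they were high. Their part in these counts is thus no independent support for a rise.

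**Figure D1:**
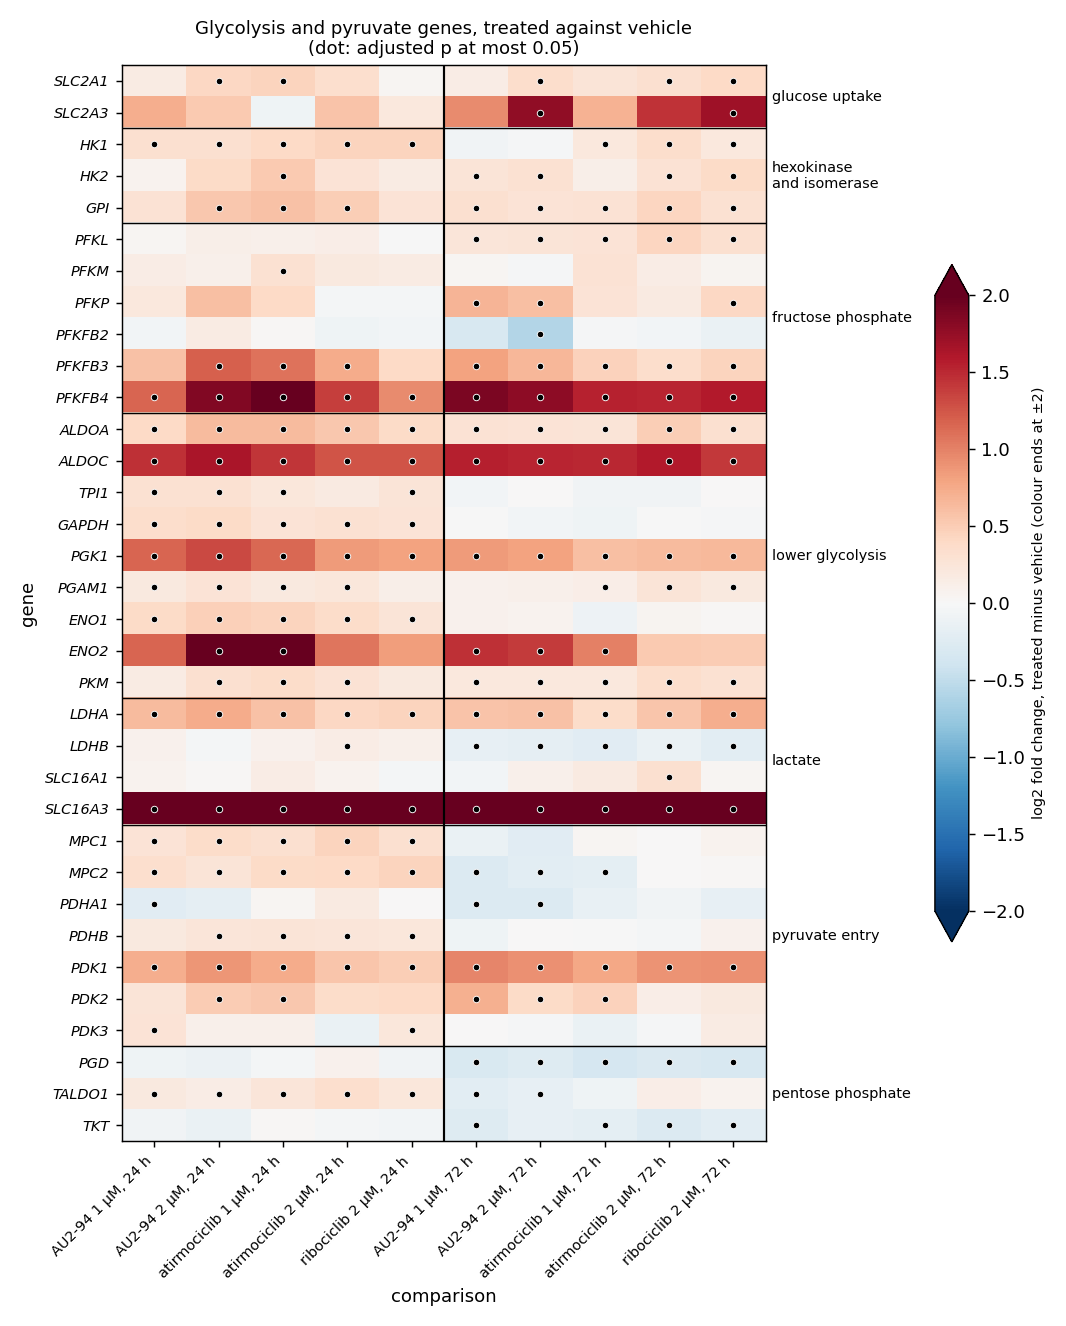
Log2 fold change of the 34 genes tested (rows, by step of the pathway) in the 10 comparisons with vehicle (columns, 24 h left and 72 h right). Red is higher and blue lower than vehicle, the colour scale ends at 2 in either direction, and a dot marks an adjusted p of at most 0.05. SLC16A3, ALDOC and PFKFB4 carry a dot in all 10 columns, and the blue squares with a dot, such as those of LDHB and PGD, lie at 72 h but for PDHA1 with 1 µM AU2-94.

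Glucose uptake is carried out by SLC2A1 (GLUT1), the widespread basal transporter, and SLC2A3 (GLUT3), which has a higher affinity for glucose. SLC2A1 rose in 2 of 5 treatments at 24 h and in 3 of 5 at 72 h, with all 5 log2 fold changes above 0 at both times (0.04 to 0.45 and 0.15 to 0.39). Its normalised counts were 1242 to 1457 in vehicle and 1256 to 2001 in treated libraries at 24 h, which overlapped. All 5 of its calls depended on single libraries. With 2 µM AU2-94 the call was lost without treated library 1 or 2 or vehicle library 2 or 3 (adjusted p = 0.069 to 0.109) at 24 h and without treated library 2 or vehicle library 1 or 3 (adjusted p = 0.115 to 0.117) at 72 h, with 1 µM atirmociclib, 24 h, without treated library 1 or vehicle library 2 or 3 (adjusted p = 0.0514 to 0.0637), and at 72 h with 2 µM atirmociclib without treated library 1, 2 or 3 or vehicle library 1 or 3 (adjusted p = 0.0655 to 0.133) and with ribociclib without treated library 2 or 3 or vehicle library 1 or 3 (adjusted p = 0.0526 to 0.106). With 2 µM atirmociclib, 24 h, SLC2A1 passed with the replicate block (adjusted p = 0.0399, against 0.0646 without it). SLC2A3 (ENSG00000059804, chr12:7919230-8019007, minus strand) was close to the limit of detection. Normalised counts at 72 h were 2.52, 6.27 and 9.23 in vehicle, 10.6, 9.78 and 14.1 in 1 µM AU2-94 and 52.5, 8.83 and 18.6 in 2 µM AU2-94. They were 11.6, 5.98 and 11.4 in 1 µM atirmociclib, 13.2, 10.8 and 30.4 in 2 µM atirmociclib and 12.0, 44.2 and 14.0 in ribociclib. Only 2 µM AU2-94 (1.77 ± 0.60, adjusted p = 0.033) and ribociclib (1.69 ± 0.60, adjusted p = 0.039) passed, and both groups held a library far above its other two. Without library 1 of the former the change was 1.12 (adjusted p = 0.187), and without library 2 of the latter 1.12 (adjusted p = 0.197). These calls were also lost without library 3 of the former and without vehicle library 1 or 2 in either. Its 24 h counts ran from 6.46 to 20.8 in treated and 8.51 to 11.5 in vehicle libraries, and no treatment passed. SLC2A3 shares stretches of up to 1114 bases with SLC2A14, which was listed at a mean of 0.0599.

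Hexokinases phosphorylate glucose, and GPI turns glucose 6-phosphate into fructose 6-phosphate. HK1 rose in all 5 treatments at 24 h, by 0.32 to 0.44, and its treated libraries (3099 to 3526) did not overlap vehicle (2469 to 2596). At 72 h HK1 remained higher with atirmociclib (0.21 ± 0.05 at 1 µM and 0.36 ± 0.05 at 2 µM) and ribociclib (0.21 ± 0.05), whereas with AU2-94 the values were -0.06 ± 0.05 and -0.02 ± 0.05, which did not pass. HK2, the form linked to growth and tumour cells, passed with 1 µM atirmociclib at 24 h (0.52 ± 0.15) and in 4 of 5 treatments at 72 h (0.12 to 0.39 over all 5). The 24 h call was lost without vehicle library 3 (adjusted p = 0.0558).

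GPI (ENSG00000105220, chr19:34359480-34402413, plus strand) was the gene of this step with the largest mean change. In vehicle at 24 h GPI had normalised counts of 11287, 12037 and 11852, followed by 11917, 17046 and 14444 in 1 µM AU2-94 and 18272, 18219.8 and 14799.8 in 2 µM AU2-94. The other groups gave 18809.9, 15646 and 18260.4 in 1 µM atirmociclib, 19639, 16351 and 13912 in 2 µM atirmociclib and 13899, 13108 and 15447 in ribociclib. Vehicle and treated libraries touched only at library 1 of 1 µM AU2-94. GPI stood at 11881, 12504 and 13938 normalised counts in vehicle at 72 h, at 16316, 16099.5 and 15426 in 1 µM AU2-94 and at 15454, 14751 and 16239 in 2 µM AU2-94. Values were 14065, 14983 and 17739 in 1 µM atirmociclib, 17985, 16423 and 16953 in 2 µM atirmociclib and 15464, 15025 and 16726 in ribociclib. At 72 h every treated library lay above every vehicle library. The log2 fold changes at 24 h were 0.29 ± 0.12 and 0.54 ± 0.12 for 1 and 2 µM AU2-94, 0.58 ± 0.12 and 0.49 ± 0.12 for 1 and 2 µM atirmociclib, and 0.27 ± 0.12 for ribociclib, of which the first and the last did not pass (adjusted p = 0.0934 and 0.11), and at 72 h 0.28 to 0.42, of which all 5 passed (adjusted p at most 0.0063).

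The phosphofructokinase step commits sugar to glycolysis, and the PFKFB enzymes make and break fructose 2,6-bisphosphate, its strongest activator. Of the kinase subunits, PFKL rose in all 5 treatments at 72 h (0.23 to 0.42) and in none at 24 h (-0.01 to 0.14). PFKP rose at 72 h with 1 and 2 µM AU2-94 and with ribociclib (0.67 ± 0.11, 0.60 ± 0.11 and 0.41 ± 0.11), and with 1 µM atirmociclib its adjusted p was 0.0501, and 0.0233 with the replicate block. PFKM passed only with 1 µM atirmociclib, 24 h (0.30 ± 0.10), a call lost without treated library 2 or 3 or vehicle library 2 or 3 (adjusted p = 0.0641 to 0.137). PFKFB2 passed only with 2 µM AU2-94, 72 h, where it was lower (-0.58 ± 0.13, adjusted p = 0.00193). At 24 h library 2 of that dose stood apart, with a normalised count of 1683 against 792.9 and 854.7 in the others of its group.

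PFKFB4 (ENSG00000114268, chr3:48517684-48562015, minus strand), a bifunctional kinase and phosphatase induced in low oxygen, changed most in this step. The 3 vehicle libraries at 24 h had normalised counts of 234, 279 and 235, against 325, 809 and 650.4 in 1 µM AU2-94 and 1144, 964 and 664 in 2 µM AU2-94. The counts were 1225, 846 and 933 in 1 µM atirmociclib, 1076, 719 and 354 in 2 µM atirmociclib and 536, 392 and 530.3 in ribociclib. All 15 treated libraries were above vehicle, although library 1 of 1 µM AU2-94 and library 3 of 2 µM atirmociclib were far lower than the others of their groups. Normalised counts at 72 h were 221, 253 and 217 in vehicle, 870.2, 849.7 and 827 in 1 µM AU2-94 and 709, 747 and 958 in 2 µM AU2-94. They were 599.7, 715 and 690.4 in 1 µM atirmociclib, 554, 685 and 763 in 2 µM atirmociclib and 671, 583 and 851 in ribociclib. At 72 h the treated libraries were closer together and again all above vehicle. The log2 fold changes were 1.16 ± 0.33 and 1.86 ± 0.33 for 1 and 2 µM AU2-94, 1.99 ± 0.33 and 1.38 ± 0.33 for 1 and 2 µM atirmociclib, and 0.95 ± 0.33 for ribociclib at 24 h (adjusted p at most 0.0365) and 1.88 ± 0.14 and 1.79 ± 0.14 for 1 and 2 µM AU2-94, 1.53 ± 0.14 and 1.52 ± 0.14 for 1 and 2 µM atirmociclib, and 1.59 ± 0.14 for ribociclib at 72 h (adjusted p at most 6.76e-08). The 24 h call with ribociclib was lost without treated library 1 or 3 or vehicle library 1, 2 or 3 (adjusted p = 0.0528 to 0.102), and that with 1 µM AU2-94 without treated library 2 or 3 (adjusted p = 0.0582 to 0.0813). Without library 3 of 2 µM atirmociclib the 24 h change was 1.82.

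PFKFB3 (ENSG00000170525, chr10:6144934-6254644, plus strand) is the isoform with the strongest kinase activity relative to phosphatase. In vehicle at 24 h PFKFB3 had normalised counts of 465, 533 and 392, followed by 523, 892 and 709.6 in 1 µM AU2-94 and 1337, 1174 and 734 in 2 µM AU2-94. The other groups gave 1141, 742 and 1109 in 1 µM atirmociclib, 1064, 805 and 523 in 2 µM atirmociclib and 771, 426 and 683 in ribociclib. The highest vehicle library was above the lowest library of every group except 1 µM atirmociclib and 2 µM AU2-94. PFKFB3 stood at 546, 451 and 479 normalised counts in vehicle at 72 h, at 817, 859 and 900.5 in 1 µM AU2-94 and at 805, 836 and 700.0 in 2 µM AU2-94. Values were 632, 673 and 732 in 1 µM atirmociclib, 561, 622 and 693 in 2 µM atirmociclib and 700.3, 621 and 679 in ribociclib. At 72 h vehicle and treated libraries did not overlap. The changes were 0.59 ± 0.28 and 1.19 ± 0.28 for 1 and 2 µM AU2-94, 1.09 ± 0.28 and 0.73 ± 0.28 for 1 and 2 µM atirmociclib, and 0.40 ± 0.28 for ribociclib at 24 h, of which 2 µM AU2-94 and atirmociclib at both doses passed, and 0.35 to 0.81 at 72 h, all passing (adjusted p at most 0.00712). The call with 2 µM atirmociclib, 24 h, was lost without treated library 1 or 2 or vehicle library 1, 2 or 3 (adjusted p = 0.0527 to 0.224), and without its library 3 the change was 1.01.

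Lower glycolysis runs from aldolase to pyruvate kinase and yields the ATP and NADH of the pathway. At 24 h the genes that rose were all 9 genes with 2 µM AU2-94 and with 1 µM atirmociclib, 7 with 1 µM AU2-94 and with 2 µM atirmociclib, and 6 with ribociclib. At 72 h 5 or 6 of the 9 rose, and GAPDH, TPI1, ENO1 and, in part, ENO2 and PGAM1 did not pass. None fell at either time.

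ALDOC (ENSG00000109107, chr17:28573115-28576948, minus strand), the brain form of fructose-bisphosphate aldolase, rose by a similar amount in all 10 comparisons. The 3 vehicle libraries at 24 h had normalised counts of 650.5, 853 and 678, against 1654, 2308 and 2084 in 1 µM AU2-94 and 2236, 2319 and 2158 in 2 µM AU2-94. The counts were 2054, 1808 and 1960.1 in 1 µM atirmociclib, 2239, 2092 and 1091 in 2 µM atirmociclib and 1793, 1529.9 and 1893 in ribociclib. Normalised counts at 72 h were 674, 667 and 713 in vehicle, 2074, 1912 and 2027 in 1 µM AU2-94 and 1850.3, 1816 and 2242 in 2 µM AU2-94. They were 1756, 1893 and 2191 in 1 µM atirmociclib, 1881, 2132 and 2142 in 2 µM atirmociclib and 1796, 1608 and 2093 in ribociclib. Vehicle and treated libraries did not overlap at either time, and the lowest treated library was library 3 of 2 µM atirmociclib, 24 h. The log2 fold changes were 1.47 ± 0.19 and 1.63 ± 0.19 for 1 and 2 µM AU2-94, 1.42 ± 0.19 and 1.25 ± 0.19 for 1 and 2 µM atirmociclib, and 1.26 ± 0.19 for ribociclib at 24 h (adjusted p at most 5.44e-05), and at 72 h 1.41 to 1.58 (adjusted p at most 3.5e-09). Without library 3 of 2 µM atirmociclib the 24 h change was 1.58. ALDOA, the muscle and ubiquitous form, also rose in all 10 comparisons, by 0.38 to 0.63 at 24 h and 0.25 to 0.50 at 72 h. Its 24 h calls with 1 µM AU2-94 and with ribociclib were lost without library 2 of the former (adjusted p = 0.0783) and library 3 of the latter (adjusted p = 0.0523).

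PGK1 (ENSG00000102144, chrX:77910739-78129295, plus strand), phosphoglycerate kinase, makes the first ATP of lower glycolysis. In vehicle at 24 h PGK1 had normalised counts of 5362, 6494 and 5683, followed by 11421, 14109.7 and 13767 in 1 µM AU2-94 and 14527, 15702 and 13378 in 2 µM AU2-94. The other groups gave 14069.7, 12286 and 12326 in 1 µM atirmociclib, 13907, 12412 and 6676 in 2 µM atirmociclib and 10143, 9274 and 11362 in ribociclib. Library 3 of 2 µM atirmociclib lay just above the highest vehicle library, and the other treated libraries far above it. PGK1 stood at 4988, 5999.8 and 5670.3 normalised counts in vehicle at 72 h, at 10155, 9714 and 10193 in 1 µM AU2-94 and at 8708, 9852 and 10715 in 2 µM AU2-94. Values were 7416, 8369 and 9547 in 1 µM atirmociclib, 7651, 9392 and 8843 in 2 µM atirmociclib and 8732, 7336 and 10257 in ribociclib. Treated and vehicle libraries were again apart, over a narrower range. The changes were 1.16 ± 0.18 and 1.32 ± 0.18 for 1 and 2 µM AU2-94, 1.14 ± 0.18 and 0.85 ± 0.18 for 1 and 2 µM atirmociclib, and 0.81 ± 0.18 for ribociclib at 24 h (adjusted p at most 0.00183), and at 72 h 0.60 to 0.86 (adjusted p at most 0.00028). Without library 3 of 2 µM atirmociclib the 24 h change was 1.17.

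ENO2 (ENSG00000111674, chr12:6913745-6923698, plus strand), the neuron-specific enolase that also serves as a marker of neuroendocrine cells, varied widely between replicates. The 3 vehicle libraries at 24 h had normalised counts of 128, 222 and 196, against 265, 622 and 377 in 1 µM AU2-94 and 1264, 822 and 441 in 2 µM AU2-94. The counts were 1053, 462 and 852 in 1 µM atirmociclib, 733, 652 and 106 in 2 µM atirmociclib and 398, 236 and 342 in ribociclib. Vehicle was overlapped only by library 3 of 2 µM atirmociclib, which was the lowest of all 18 libraries. Normalised counts at 72 h were 93.3, 73.9 and 119.5 in vehicle, 309, 236 and 239.6 in 1 µM AU2-94 and 262, 236 and 252 in 2 µM AU2-94. They were 207, 172 and 193 in 1 µM atirmociclib, 94.4, 147 and 176 in 2 µM atirmociclib and 111, 112 and 190.0 in ribociclib. At 72 h the AU2-94 libraries and those of 1 µM atirmociclib lay above vehicle, and those of 2 µM atirmociclib and ribociclib overlapped it in part. The changes at 24 h were 1.16 ± 0.56 and 2.12 ± 0.56 for 1 and 2 µM AU2-94, 2.07 ± 0.56 and 1.06 ± 0.56 for 1 and 2 µM atirmociclib, and 0.84 ± 0.56 for ribociclib, of which 2 µM AU2-94 and 1 µM atirmociclib passed (adjusted p = 0.00719 and 0.00795). Without library 3 of 2 µM atirmociclib its 24 h change was 1.96 (adjusted p = 0.00145), so that library alone decided this call. At 72 h the changes were 1.46 ± 0.23 and 1.40 ± 0.23 for 1 and 2 µM AU2-94, 1.01 ± 0.23 and 0.52 ± 0.23 for 1 and 2 µM atirmociclib, and 0.50 ± 0.23 for ribociclib, of which the first 3 passed (adjusted p at most 0.0016).

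GAPDH (ENSG00000111640, chr12:6534512-6538374, plus strand), the dehydrogenase that makes glycolytic NADH, is widely used as a reference gene and served with ACTB to normalise the quantitative PCR of this study. In vehicle at 24 h GAPDH had normalised counts of 51740.4, 53469 and 53688, followed by 66087, 65937 and 70748 in 1 µM AU2-94 and 71051, 68545 and 66986 in 2 µM AU2-94. The other groups gave 64626, 64950.3 and 63074 in 1 µM atirmociclib, 72371, 69742 and 55824 in 2 µM atirmociclib and 63925, 62859 and 66314 in ribociclib. All 15 treated libraries lay above vehicle. GAPDH stood at 53553, 54343 and 57089 normalised counts in vehicle at 72 h, at 54223, 55079 and 53905 in 1 µM AU2-94 and at 52286, 50661 and 56239 in 2 µM AU2-94. Values were 51575, 50495 and 54204 in 1 µM atirmociclib, 55485, 54831 and 54078 in 2 µM atirmociclib and 51844, 53757 and 56447 in ribociclib. At 72 h no treated library lay above the highest vehicle library and 5 lay under the lowest. The changes were 0.35 ± 0.06 and 0.38 ± 0.06 for 1 and 2 µM AU2-94, 0.28 ± 0.06 and 0.31 ± 0.06 for 1 and 2 µM atirmociclib, and 0.28 ± 0.06 for ribociclib at 24 h, all passing (adjusted p at most 0.00247), while at 72 h they were -0.08 to -0.0047, none passing (adjusted p at least 0.127). ACTB, named for that same use after its values were seen, was lower than vehicle in all 10 comparisons, by -0.17 to -0.09 at 24 h and -0.32 to -0.15 at 72 h, passed in each, and kept its direction with equal totals and with quantile normalisation. The 2 reference genes thus moved in opposite directions at 24 h.

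**Figure D2:**
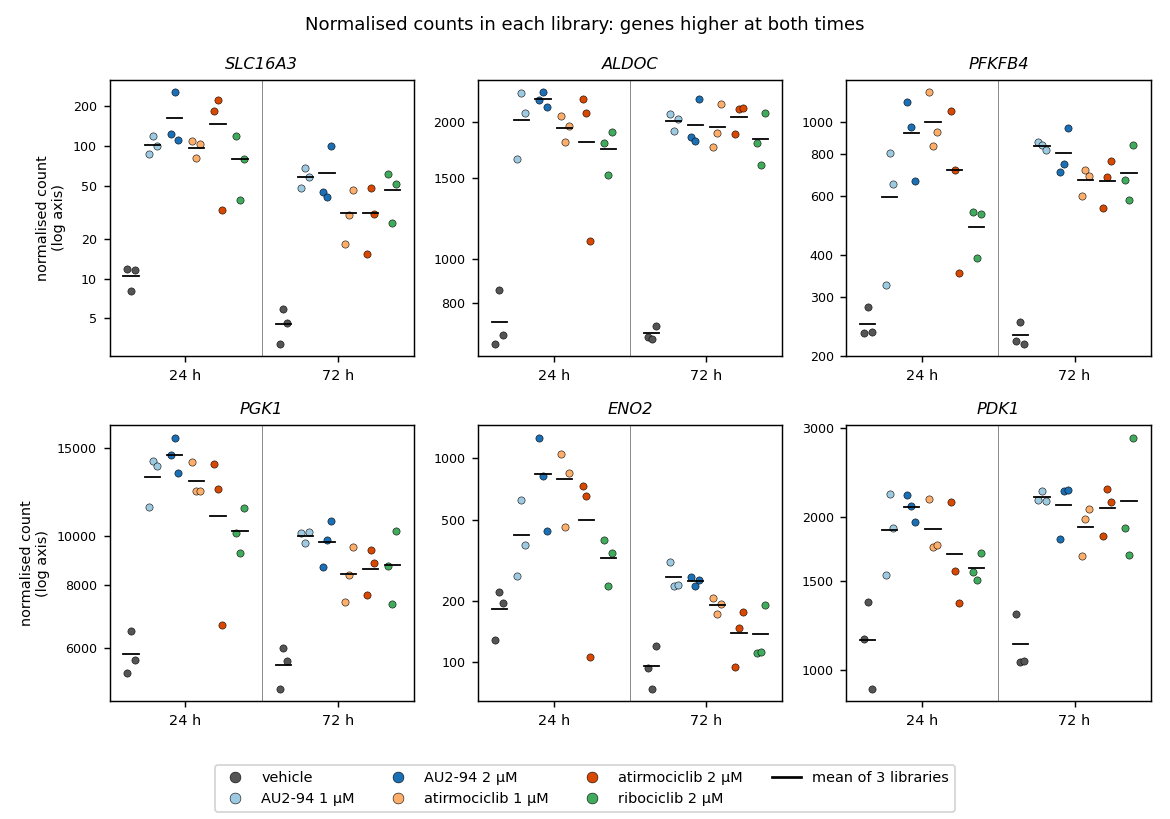
Normalised count (log axis) of SLC16A3, ALDOC, PFKFB4, PGK1, ENO2 and PDK1 in each of the 36 libraries, with 24 h to the left and 72 h to the right of each panel. Points are libraries coloured by treatment and lines are group means of 3, and the treated libraries of ALDOC all sit above the vehicle libraries at both times, while library 3 of 2 µM atirmociclib, 24 h, is the lowest treated point of its time for 5 of the 6 genes.

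The other genes of lower glycolysis moved less. TPI1, which interconverts the triose phosphates, rose in 4 of 5 treatments at 24 h (0.18 to 0.31) and in none at 72 h (-0.07 to 0.01), and its calls with 1 µM atirmociclib and with ribociclib were lost without treated library 1 or 2 or vehicle library 1 or 3 (adjusted p = 0.0892 to 0.11) and without treated library 3 or vehicle library 1 or 3 (adjusted p = 0.0638 to 0.0868). ENO1, the main enolase, rose in all 5 at 24 h (0.26 to 0.48) and in none at 72 h (-0.10 to 0.09), and its ribociclib call was lost without treated library 1 or 3 or vehicle library 1 or 3 (adjusted p = 0.0631 to 0.0785). PKM, pyruvate kinase, rose in 3 of 5 at 24 h (0.17 to 0.36) and in all 5 at 72 h (0.21 to 0.35), and at 72 h its treated libraries (24434 to 30565) lay wholly above vehicle (22161 to 22875). Its call with 2 µM atirmociclib, 24 h, was lost without treated library 1 (adjusted p = 0.0665). PGAM1, phosphoglycerate mutase, rose in 4 of 5 at 24 h (0.11 to 0.27) and in 3 of 5 at 72 h (0.09 to 0.25). Its 24 h calls were lost without treated library 2 or 3 or vehicle library 1 or 3 (adjusted p = 0.068 to 0.102) with 1 µM AU2-94, without treated library 1 or vehicle library 1 or 3 (adjusted p = 0.0557 to 0.0767) with 1 µM atirmociclib and without treated library 1 (adjusted p = 0.0609) with 2 µM atirmociclib, and its 72 h call with 1 µM atirmociclib without treated library 2 or 3 or vehicle library 1 or 3 (adjusted p = 0.0639 to 0.133). PGAM1 shares up to 793 bases with transcripts of 2 other genes in the table, mainly ATP7A, whose mean counts summed to 12.4% of the mean of PGAM1. That sum takes in all reads of those genes and not only those of the shared stretch, so the part of the PGAM1 reads that is uncertain is not known.

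Pyruvate is reduced to lactate by lactate dehydrogenase, in which LDHA subunits favour lactate formation and LDHB subunits its oxidation, and lactate crosses the membrane through SLC16A1 (MCT1) and SLC16A3 (MCT4), the exporter typical of glycolytic cells. SLC16A3 had the largest change of the 34 genes tested, LDHA rose in all 10 comparisons, and LDHB was lower in all 5 treatments at 72 h. SLC16A3 passed the filter through treated libraries, where it was high. Its tests below thus describe the rise and are no independent support for it.

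SLC16A3 (ENSG00000141526, chr17:82217934-82261129, plus strand) was nearly silent in vehicle-treated cells. The 3 vehicle libraries at 24 h had normalised counts of 11.8, 8.07 and 11.5, against 87.3, 118 and 99.8 in 1 µM AU2-94 and 124, 252 and 111 in 2 µM AU2-94. The counts were 108, 80.9 and 102 in 1 µM atirmociclib, 181, 222 and 33.1 in 2 µM atirmociclib and 118, 38.8 and 80.0 in ribociclib. Normalised counts at 72 h were 3.24, 5.85 and 4.66 in vehicle, 48.2, 68.6 and 58.1 in 1 µM AU2-94 and 44.7, 40.8 and 100.2 in 2 µM AU2-94. They were 18.2, 30.0 and 46.0 in 1 µM atirmociclib, 15.4, 47.7 and 30.6 in 2 µM atirmociclib and 61.1, 26.2 and 51.8 in ribociclib. No treated library overlapped vehicle at either time, and the lowest treated libraries were library 3 of 2 µM atirmociclib at 24 h and library 1 of the same dose at 72 h. The log2 fold changes on log2(value + 1) were 3.17 ± 0.52 and 3.75 ± 0.52 for 1 and 2 µM AU2-94, 3.10 ± 0.52 and 3.30 ± 0.52 for 1 and 2 µM atirmociclib, and 2.68 ± 0.52 for ribociclib at 24 h (adjusted p at most 0.000634) and 3.42 ± 0.44 and 3.40 ± 0.44 for 1 and 2 µM AU2-94, 2.47 ± 0.44 and 2.42 ± 0.44 for 1 and 2 µM atirmociclib, and 3.03 ± 0.44 for ribociclib at 72 h (adjusted p at most 0.000199), and the added 1 makes them understate the change of so low a gene. Without library 3 of 2 µM atirmociclib the 24 h change was 4.15. Reads of CSNK1D in the overlap could be counted for it in every group.

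LDHA rose by 0.42 to 0.74 at 24 h and 0.36 to 0.73 at 72 h, from 13055 to 14635 and 12861 to 13671 in vehicle to treated medians of 20402 and 20218. Its 24 h calls with 2 µM atirmociclib and with ribociclib were lost without treated library 1 or 2 or vehicle library 1 or 3 (adjusted p = 0.0768 to 0.191) and without treated library 3 or vehicle library 1 or 3 (adjusted p = 0.0594 to 0.0815), and without library 3 of 2 µM atirmociclib the 24 h change was 0.68. LDHB passed in 1 treatment at 24 h, where it was higher (2 µM atirmociclib, 0.15 ± 0.05), and fell in all 5 at 72 h, by -0.22 to -0.13, with every treated library (4582 to 5191) under every vehicle library (5308 to 5705). With 2 µM atirmociclib the 24 h call was lost without treated library 1 or vehicle library 1 (adjusted p = 0.0705 to 0.0891) and the 72 h call without treated library 1 or vehicle library 2 (adjusted p = 0.0749 to 0.083). SLC16A1 passed only with 2 µM atirmociclib at 72 h (0.32 ± 0.10), a call lost without treated library 1 or vehicle library 3 (adjusted p = 0.0514 to 0.0612).

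MPC1 and MPC2 form the carrier that brings pyruvate into the mitochondrion, PDHA1 and PDHB encode the first enzyme of the pyruvate dehydrogenase complex, and the PDK kinases switch that complex off. The kinase PDK1 rose in all 10 comparisons, whereas the carrier and PDHB rose at 24 h only.

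PDK1 (ENSG00000152256, chr2:172555373-172608669, plus strand) led this step. In vehicle at 24 h PDK1 had normalised counts of 1151, 1364 and 919, followed by 1536, 2224 and 1905 in 1 µM AU2-94 and 2211, 2100.0 and 1960.3 in 2 µM AU2-94. The other groups gave 2171, 1744 and 1765 in 1 µM atirmociclib, 2145, 1568 and 1358 in 2 µM atirmociclib and 1561, 1507 and 1702 in ribociclib. At 24 h library 3 of 2 µM atirmociclib fell inside the vehicle range and the rest lay above it. PDK1 stood at 1289.9, 1038 and 1042 normalised counts in vehicle at 72 h, at 2163, 2249 and 2154 in 1 µM AU2-94 and at 1816, 2254 and 2259 in 2 µM AU2-94. Values were 1675, 1983 and 2076 in 1 µM atirmociclib, 1839.8, 2276 and 2144 in 2 µM atirmociclib and 1905, 1683 and 2869 in ribociclib. At 72 h no library overlapped vehicle. The changes were 0.72 ± 0.16 and 0.89 ± 0.16 for 1 and 2 µM AU2-94, 0.74 ± 0.16 and 0.55 ± 0.16 for 1 and 2 µM atirmociclib, and 0.49 ± 0.16 for ribociclib at 24 h (adjusted p at most 0.0233), and at 72 h 0.77 to 0.97 (adjusted p at most 0.000432). The 24 h calls with 2 µM atirmociclib and with ribociclib were lost without treated library 1 or vehicle library 3 (adjusted p = 0.0717 to 0.0786) and without treated library 3 or vehicle library 3 (adjusted p = 0.0816 to 0.136). PDK2 rose in 2 treatments at 24 h and in 3 at 72 h, most with 1 µM AU2-94, 72 h (0.71 ± 0.14), and its calls were lost without treated library 1 or 2 or vehicle library 1 or 3 (adjusted p = 0.117 to 0.186) with 2 µM AU2-94, 24 h, without treated library 2 or 3 or vehicle library 1 or 3 (adjusted p = 0.0717 to 0.121) with 1 µM atirmociclib, 24 h, and without treated library 2 or 3 or vehicle library 1 or 2 (adjusted p = 0.113 to 0.132) with 2 µM AU2-94, 72 h. PDK3 passed with 1 µM AU2-94 and ribociclib at 24 h (0.27 ± 0.08 and 0.23 ± 0.08) and in no treatment at 72 h. These calls were lost without vehicle library 2 (adjusted p = 0.074) and without treated library 2 or 3 or vehicle library 2 (adjusted p = 0.0814 to 0.133).

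MPC2 rose in all 5 treatments at 24 h (0.26 to 0.45), with treated libraries (9232 to 11371) wholly above vehicle (8143 to 8349). At 72 h it was lower with 1 and 2 µM AU2-94 and 1 µM atirmociclib (-0.28 ± 0.07, -0.21 ± 0.07 and -0.20 ± 0.07), and the last 2 calls were lost without treated library 2 or vehicle library 1 or 2 (adjusted p = 0.0776 to 0.127) and without treated library 1 or 3 or vehicle library 1 or 2 (adjusted p = 0.0533 to 0.1). MPC1 rose in all 5 at 24 h (0.27 to 0.44) and in none at 72 h (-0.22 to 0.06). Its call with 1 µM AU2-94 was lost without treated library 1, 2 or 3 or vehicle library 1 or 2 (adjusted p = 0.0521 to 0.138), and those with 1 µM atirmociclib and ribociclib without vehicle library 1 (adjusted p = 0.0607 and 0.0601). PDHB rose in 4 of 5 at 24 h (0.20 to 0.25), and in none at 72 h (-0.09 to 0.09). Its calls were lost without treated library 2 or 3 or vehicle library 1 or 2 (adjusted p = 0.0565 to 0.0979) with 2 µM AU2-94, without treated library 2 or vehicle library 1 or 2 (adjusted p = 0.0512 to 0.131) and without treated library 3 or vehicle library 1 or 2 (adjusted p = 0.053 to 0.0935) with 1 and 2 µM atirmociclib, and without treated library 2 or 3 or vehicle library 1 or 2 (adjusted p = 0.0824 to 0.186) with ribociclib. PDHA1 went the other way with AU2-94, at -0.22 ± 0.07 at 1 µM, 24 h, and -0.28 ± 0.07 and -0.27 ± 0.07 at 72 h, and did not pass with the other agents. The 24 h call was lost without treated library 1 or 2 or vehicle library 1 or 3 (adjusted p = 0.0504 to 0.129).

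In the pentose phosphate pathway, PGD makes NADPH in the oxidative branch, and TKT and TALDO1 shuffle sugars in the non-oxidative branch. PGD (ENSG00000142657, chr1:10398592-10420511, plus strand) changed most. The 3 vehicle libraries at 24 h had normalised counts of 3846, 4020.2 and 4177, against 3647, 3598 and 4171 in 1 µM AU2-94 and 3574, 3698 and 3803 in 2 µM AU2-94. The counts were 3974, 3758 and 3928 in 1 µM atirmociclib, 4229, 4261 and 4221 in 2 µM atirmociclib and 3902, 3689 and 3828 in ribociclib. At 24 h the 3 libraries of 2 µM atirmociclib lay above vehicle, the 3 of 2 µM AU2-94 lay under it, and the other groups overlapped it. Normalised counts at 72 h were 4202, 4056 and 3995 in vehicle, 3278, 3275 and 3315 in 1 µM AU2-94 and 3624, 3348 and 3296 in 2 µM AU2-94. They were 3237, 3128 and 3329 in 1 µM atirmociclib, 3362, 3330.4 and 3309.9 in 2 µM atirmociclib and 3336, 3261 and 3234 in ribociclib. At 72 h every treated library lay under vehicle. No treatment passed at 24 h (-0.12 to 0.08, adjusted p at least 0.0888), and all 5 fell at 72 h, by -0.31 ± 0.04 and -0.26 ± 0.04 for 1 and 2 µM AU2-94, -0.34 ± 0.04 and -0.29 ± 0.04 for 1 and 2 µM atirmociclib, and -0.32 ± 0.04 for ribociclib (adjusted p at most 0.000173). TKT passed in no treatment at 24 h and fell in 4 of 5 at 72 h (-0.28 to -0.16 over all 5), and the calls were lost without treated library 2 or vehicle library 1 (adjusted p = 0.0502 to 0.0636) with 1 µM AU2-94, without treated library 1, 2 or 3 or vehicle library 1 or 2 (adjusted p = 0.0553 to 0.142) with 1 µM atirmociclib and without treated library 1 or 2 or vehicle library 1 or 2 (adjusted p = 0.0584 to 0.149) with ribociclib. TALDO1 rose in all 5 at 24 h (0.15 to 0.34) and fell with 1 and 2 µM AU2-94 at 72 h (-0.20 ± 0.06 and -0.16 ± 0.06). The calls with 2 µM AU2-94 were lost without treated library 2 or 3 or vehicle library 1 or 2 (adjusted p = 0.0617 to 0.136) at 24 h and without treated library 2 or 3 or vehicle library 1 or 2 (adjusted p = 0.066 to 0.125) at 72 h.

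The change of each effect between 24 h and 72 h was tested directly, that is the 72 h effect less the 24 h effect, in a fit of all 36 libraries over 16850 genes. Of the 34 genes, 8 had a lower effect at 72 h with 1 µM AU2-94, against 11.5% of all genes, and 0 a higher one, against 10.1%. With 2 µM AU2-94 the counts were 8 lower and 0 higher, against 9.28% and 9.26%, and with 1 µM atirmociclib 9 and 0, against 10.6% and 11.3%. Treatment with 2 µM atirmociclib gave 6 lower and 1 higher, against 9.96% and 11.7%, and ribociclib 5 and 1, against 9.66% and 10.5%. GAPDH and MPC2 were among the lower in all 5 treatments. GAPDH differed by -0.37 ± 0.08 and -0.43 ± 0.08 for AU2-94, -0.36 ± 0.08 and -0.31 ± 0.08 for atirmociclib and -0.31 ± 0.08 for ribociclib. The largest difference of MPC2 was -0.62 ± 0.08, adjusted p = 1.31e-06, with 1 µM AU2-94. With 2 µM AU2-94 the 8 became 5 without vehicle library 2 of 72 h, and of the 38 calls over the 5 treatments 28 passed whichever library was left out. PFKL was the only gene with a higher effect at 72 h, with 2 µM atirmociclib (0.28 ± 0.09) and ribociclib (0.33 ± 0.09). SLC16A3, ALDOC, PFKFB4, PGK1, ENO2, LDHA and PDK1 passed this test in no treatment. In vehicle itself, 2 of the 34 genes were higher at 72 h than at 24 h, against 3.85% of all genes, and 0 lower, against 3.64%. These were MPC2 (0.18 ± 0.06), lost without any single vehicle library but library 3 at 72 h (adjusted p = 0.079 to 0.188), and PDK3 (0.32 ± 0.08), lost without vehicle library 2 at 24 h (adjusted p = 0.0854).

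**Figure D3:**
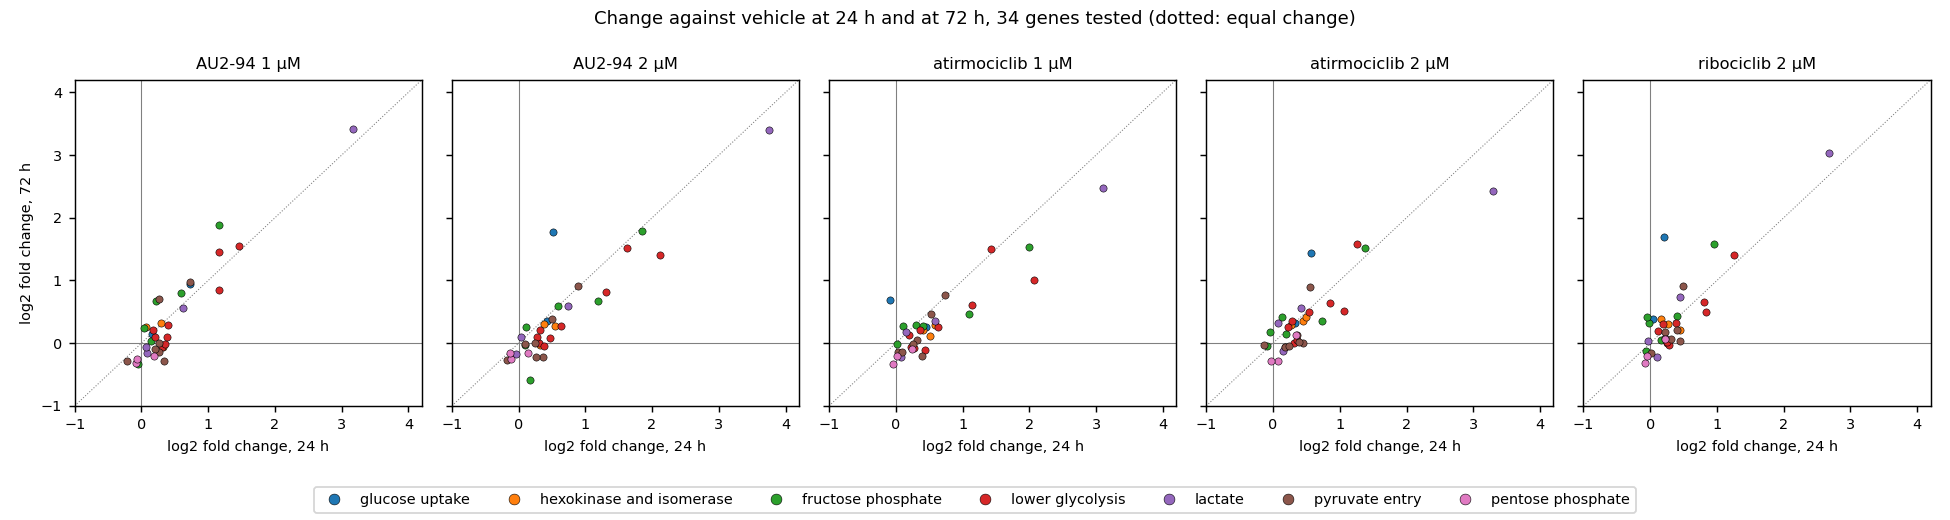
Log2 fold change against vehicle at 24 h (horizontal) and at 72 h (vertical) for the 34 genes tested, in a panel for each treatment, coloured by step of the pathway. Points under the dotted line had a smaller or more negative change at 72 h, and SLC16A3 is the point farthest to the right in every panel.

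**Figure D4:**
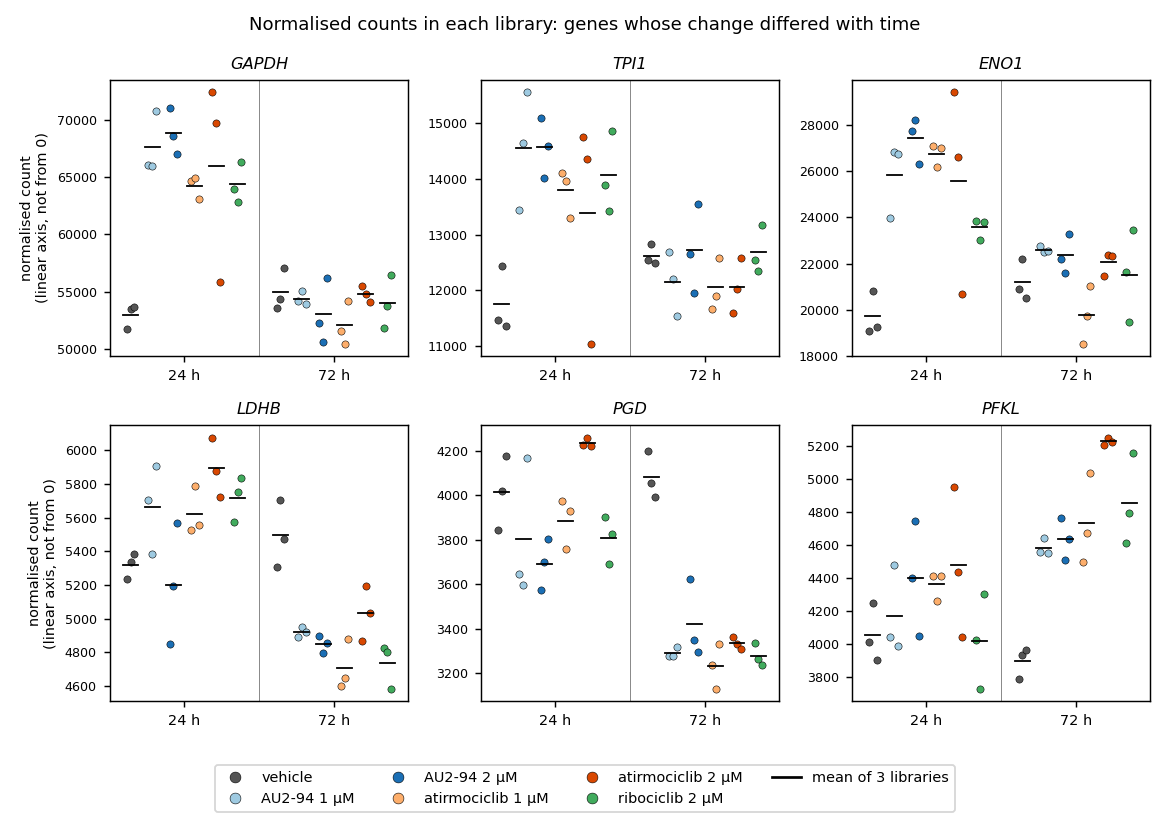
Normalised count (linear axis that does not start at 0) of GAPDH, TPI1, ENO1, LDHB, PGD and PFKL in each of the 36 libraries, with 24 h left and 72 h right in each panel. Points are libraries and lines group means of 3, and GAPDH lies above vehicle in all treated libraries at 24 h but in none at 72 h.

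Where genes encode the same step, their shares of normalised counts per kilobase of exon are given as a description of RNA, with no test. The lengths are again those of merged exons (6026 bases for LDHA and 2983 for LDHB), so the size of a share depends on the annotation. The shares thus do not settle which form was the more abundant. ALDOC made up 6.04% to 7.33% in vehicle and 8.12% to 13.4% in treated libraries of the 2 aldolase genes at 24 h, and 5.82% to 6.09% in vehicle and 10.6% to 13.7% in treated libraries at 72 h. All 15 treated libraries exceeded all vehicle libraries at both times. LDHA made up 54.6% to 57.6% in vehicle and 52.3% to 70.9% in treated libraries of the 2 lactate dehydrogenase genes at 24 h, with 14 of 15 above vehicle, and 53.8% to 55.9% in vehicle and 63.8% to 72.1% in treated libraries at 72 h, with all 15 above. PDK1 made up 25.7% to 31.9% in vehicle and 29.1% to 43.9% in treated libraries of the 3 kinase genes at 24 h, with 13 of 15 above, and at 72 h 25.9% to 32.0% in vehicle and 36.4% to 43.6% in treated libraries, with all 15 above. At 72 h the shares of ALDOC, LDHA and PDK1 thus did not overlap vehicle. SLC16A3 made up 0.208% to 0.299% in vehicle and 0.806% to 5.88% in treated libraries of the 2 transporter genes at 24 h and 0.0802% to 0.124% in vehicle and 0.278% to 2.02% in treated libraries at 72 h, so that SLC16A1 remained the more abundant by far. ENO2 made up at most 5.26% of the 2 enolase genes in any library. The share of HK2 in hexokinase overlapped vehicle at both times, with 4 and 8 of 15 treated libraries above it. PFKP, as a share of the 3 phosphofructokinase genes, was above vehicle in 7 and 8 of 15.

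**Figure D5:**
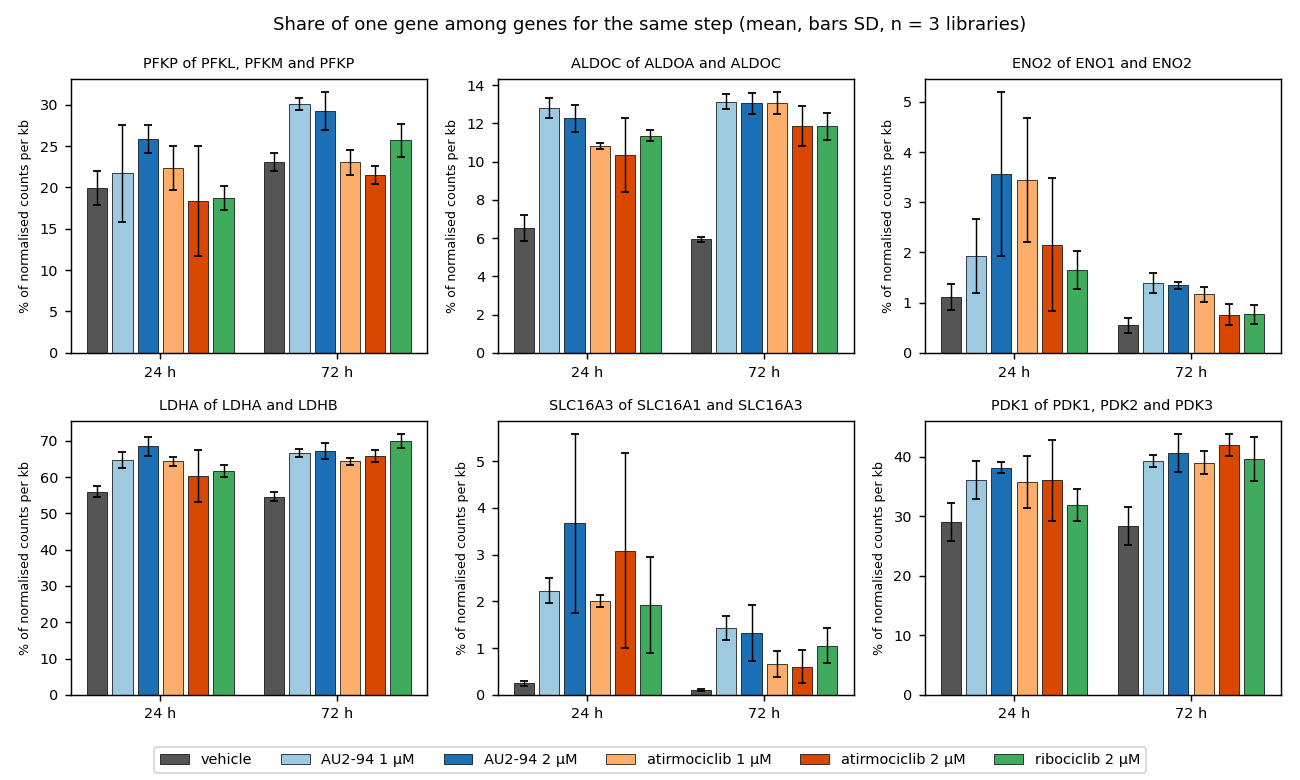
Share, in percent of normalised counts per kilobase of exon, of a gene among the genes for the same step, as mean of 3 libraries with bars for the SD, for 6 groups at 24 h and 6 at 72 h. The grey vehicle bars of ALDOC stand under every treated bar at both times, and the shares of SLC16A3 and ENO2 stay at a few percent.

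The agents were compared with each other at matched dose and time, in 8 comparisons. At 2 µM, 72 h, 8 of the 34 genes were higher (23.5%) and 3 lower (8.82%) with atirmociclib than with AU2-94, against 11.1% of all genes higher and 8.73% lower. The share of lower genes was thus near that of all genes. HK1 (0.38 ± 0.05), TALDO1 (0.30 ± 0.06), PFKFB2 (0.53 ± 0.13), MPC2 (0.23 ± 0.07), ALDOA, PDHA1, PFKL and PGAM1 (0.15 to 0.22) were higher with atirmociclib. ENO2 (-0.89 ± 0.23), PFKP (-0.42 ± 0.11) and PFKFB3 (-0.32 ± 0.10) were lower with atirmociclib. At 1 µM, 72 h, HK1 was higher with atirmociclib (0.27 ± 0.05) and PFKP, PFKFB3 and ENO1 lower (-0.40 ± 0.11, -0.34 ± 0.10 and -0.19 ± 0.06). These were 2.94% and 8.82% of the 34 genes, against 4.53% of all genes higher and 3.70% lower. The HK1 difference was thus seen at both doses. The 11 genes at 2 µM became 5 without AU2-94 library 2 or atirmociclib library 1 and 7 without atirmociclib library 2. The 4 at 1 µM became 1, HK1, without any single AU2-94 library or atirmociclib library 1 or 2. At 24 h the 2 agents differed in PDHA1 at 1 µM (0.25 ± 0.07, adjusted p = 0.043, and 0.0595 with the replicate block), against 1.48% of all genes higher and 3.16% lower. At 2 µM, 24 h, PDHA1 (0.35 ± 0.07), PGD, TALDO1, LDHB and MPC2 (0.13 to 0.20) were higher with atirmociclib and 0 lower, against 5.12% of all genes higher and 4.31% lower, and MPC2 did not pass with the replicate block (adjusted p = 0.061). The 5 became 1 without AU2-94 library 1, 3 without AU2-94 library 2 or atirmociclib library 2, and 2 without atirmociclib library 3, and PDHA1 at 1 µM was lost without AU2-94 library 1 or 2 or any single atirmociclib library (adjusted p = 0.0716 to 0.188). Of the 25 calls between agents, 6 passed whichever library was left out, which were HK1 at both doses, PFKFB2 and TALDO1 at 2 µM, 72 h, and PDHA1 at 2 µM, 24 h, between atirmociclib and AU2-94, and PDK3 between atirmociclib and ribociclib at 24 h.

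Ribociclib differed from 2 µM AU2-94 in 0 of the 34 genes at 24 h, against 0.0186% of all genes higher and 0.0186% lower, and in 1 without AU2-94 library 3. At an unadjusted p under 0.05 there were 15. In the comparisons of agents where genes passed the adjusted test, 5 to 14 were under it. The share of all genes at an unadjusted p under 0.05 was not computed, so these counts and those below cannot be set against it. At 72 h they differed in 3, against 1.96% of all genes higher and 1.38% lower. These were HK1 (0.23 ± 0.05) and TALDO1 (0.23 ± 0.06), higher with ribociclib, and ENO2 (-0.90 ± 0.23), lower. The 3 became 1 without AU2-94 library 2 or ribociclib library 1 or 2, and 0 without AU2-94 library 3. Atirmociclib and 2 µM ribociclib differed in PDK3 at 24 h (-0.37 ± 0.08, adjusted p = 0.00791), which is 2.94% of the 34 genes lower, against 1.83% of all genes higher and 2.81% lower. They differed in 4 genes without atirmociclib library 3. They differed in 0 at 72 h, and in 2 without ribociclib library 2 or 3, against 4.83% of all genes higher and 4.35% lower, with 8 at an unadjusted p under 0.05. At 72 h ALDOA passed with the replicate block (adjusted p = 0.0354, against 0.0846 without it). For SLC16A3, ALDOC and PFKFB4 a difference between agents passed in none of the 8 comparisons. Atirmociclib minus 2 µM AU2-94 was -0.45 (95% interval -1.55 to 0.65) for SLC16A3 at 24 h and -0.98 (95% interval -1.89 to -0.06) at 72 h, where the interval is not adjusted for the number of genes (adjusted p = 0.128). For ALDOC it was -0.38 (95% interval -0.78 to 0.03) and 0.06 (95% interval -0.14 to 0.27), and for PFKFB4 -0.47 (95% interval -1.18 to 0.23) and -0.27 (95% interval -0.56 to 0.02). These intervals were widest for SLC16A3 and narrowest for ALDOC at 72 h.

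The doses of an agent were compared in 4 contrasts. Between 2 and 1 µM of AU2-94, 0 of the 34 genes passed at 24 h with limma, against 0.0248% of all genes higher and 0.384% lower, and 0 at 72 h, against 0% of all genes higher and 0% lower, with 5 and 1 at an unadjusted p under 0.05. Between 2 and 1 µM of atirmociclib, 0 passed at 24 h, against 0.00620% of all genes higher and 0.00620% lower, with 2 at an unadjusted p under 0.05. At 72 h ALDOA (0.24 ± 0.06) and TALDO1 (0.22 ± 0.06) were higher at 2 µM, against 1.25% of all genes higher and 0.936% lower, and TALDO1 did not pass with the replicate block (adjusted p = 0.0555). In that contrast 13 of the 34 had an unadjusted p under 0.05. The share of all genes at that threshold was not computed for any of the 4 contrasts. ALDOA passed only in the fit without library 3 of 1 µM atirmociclib (adjusted p = 0.073 to 0.186 without any other), and TALDO1 in no fit with 1 library left out (adjusted p = 0.0548 to 0.222). For SLC16A3 the dose difference was 0.58 (95% interval -0.52 to 1.68) for AU2-94 and 0.20 (95% interval -0.90 to 1.30) for atirmociclib at 24 h, and at 72 h -0.02 (95% interval -0.94 to 0.89) and -0.05 (95% interval -0.96 to 0.86).

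Of 62 further genes of the pathway in the table, 44 were tested at 24 h and 45 at 72 h. Between 10 and 18 were higher at 24 h (22.7% to 40.9%, against 14.3% to 18.6% of all genes) and 5 to 8 lower (11.4% to 18.2%, against 13.5% to 16.2% of all genes). At 72 h 7 to 14 were higher (15.6% to 31.1%, against 14.2% to 20.9% of all genes) and 11 to 15 lower (24.4% to 33.3%, against 15.3% to 19.8% of all genes). The share lower at 24 h was thus near that of all genes. SLC2A12 (GLUT12) rose in all 10 comparisons (0.81 to 1.02 at 24 h, 1.13 to 1.29 at 72 h), and the proton-coupled inositol transporter SLC2A13 fell in 3 of 5 at 24 h and in 5 of 5 at 72 h (-1.93 to -1.29). LDHD, a D-lactate dehydrogenase, rose in all 10 (0.74 to 0.90 and 0.59 to 1.24), and PCK2, the mitochondrial enzyme that makes phosphoenolpyruvate, fell in all 10 (-0.66 to -0.21 and -1.58 to -0.90). PGM1, which links glycogen to glucose 6-phosphate, rose in 5 of 5 at 24 h (0.56 to 1.03) and in 2 of 5 at 72 h. The lactate transporter SLC16A7 (MCT2) fell in 5 of 5 at 72 h only (-1.11 to -0.85).

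Among the 19 listed hypoxia-inducible genes outside the 36 that passed the filter, 9 to 14 were higher at 24 h (47.4% to 73.7%, against 14.3% to 18.6% of all genes) and 13 or 14 at 72 h (68.4% to 73.7%, against 14.2% to 20.9% of all genes), and none was lower. PLOD2, a collagen lysyl hydroxylase, rose by 4.43 to 5.79 at 24 h and at 72 h by 5.37 to 6.27, and NDUFA4L2, a mitochondrial subunit paralogue, by 3.81 to 5.18 and 3.49 to 5.12. NDRG1 (1.58 to 2.28 and 2.13 to 2.38), BNIP3 (1.05 to 1.46 and 1.02 to 1.28), P4HA1 and KDM3A also passed in all 10. Of 16 proliferation genes, 16 were lower in 9 of the 10 comparisons and 15 in the other, 2 µM AU2-94 at 72 h, against 13.5% to 16.2% of all genes lower at 24 h and 15.3% to 19.8% at 72 h, as with RRM2 (-4.43 to -1.95 and -2.20 to -1.02). Both lists, like the 36 genes, were chosen with earlier results of these data known. Their shares beside those of all genes are thus no independent support. The part of either list in the changes of the 36 genes was not tested.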

How the data were processed

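The deposited table holds counts that the authors normalised with DESeq2 after alignment with STAR 2.6.1d to GRCh38, a signal in normalised counts and not raw counts. The counter, annotation release and strand setting are not given in the sources used here, whole reads could not be recovered from the values, and so no count model was fitted and no interval on single counts is given. Libraries were grouped by their labels, and the 3 of each group differed by more than sampling noise, so each counted as a sample.

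Genes with at least 10 normalised counts in 3 libraries were fitted on log2(value + 1) with limma 3.58.1 in R 4.3.3, moderated with a variance trend, in a fit of 6 groups per time point, and of 12 for time effects, without a block. P-values were Benjamini-Hochberg adjusted over all genes of each of 28 contrasts, and ± after a log2 value is its standard error. The fit was run on simulated counts with the same spread setting for every gene. It was thus not tested at the wide spread between replicates of genes such as ENO2. Labels call the replicate number a batch, and libraries with the same number and time did not deviate together (mean correlation of deviations 0.00179 at 24 h and -0.00217 at 72 h over 45 pairs each).

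Genes given library by library were those that passed the stricter call in at least 1 comparison with vehicle, the gene of each step with the largest mean absolute change, and GAPDH. Genes outside the 36 were named from lists, at most 6 a list, by the largest mean absolute change among those that passed in at least 5 comparisons. The members and lists were chosen with earlier results of these data known. Alternatives were the pseudocount, the filter, the scaling, the variance trend, the replicate block, fits of only the groups compared and leaving out each library. Exon lengths and overlaps came from GENCODE 44, promoters from RefSeq on GRCh38.p14.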

Additional observations from a re-analysis of the deposited data

Results flagged for a closer look

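The effect of a treatment differed between the time points, by the test of the difference itself in limma, for 38 pairs of gene and treatment over 12 genes. Values are the log2 effect against vehicle at 72 h less that at 24 h, and time cannot be told apart from seeding density. For HK1 the difference was -0.39 for 1 µM AU2-94, -0.35 for 2 µM AU2-94, -0.20 for 1 µM atirmociclib and -0.23 for ribociclib (adjusted p at most 0.0344). For PFKL the difference was 0.28 for 2 µM atirmociclib and 0.33 for ribociclib (adjusted p at most 0.0191). For PFKFB2 the difference was -0.75 for 2 µM AU2-94 (adjusted p = 0.0423). For ALDOA the difference was -0.37 for 1 µM atirmociclib (adjusted p = 0.0455). For TPI1 the difference was -0.36 for 1 µM AU2-94, -0.30 for 2 µM AU2-94 and -0.30 for 1 µM atirmociclib (adjusted p at most 0.0312). For GAPDH the difference was -0.37 for 1 µM AU2-94, -0.43 for 2 µM AU2-94, -0.36 for 1 µM atirmociclib, -0.31 for 2 µM atirmociclib and -0.31 for ribociclib (adjusted p at most 0.00514). For ENO1 the difference was -0.30 for 1 µM AU2-94, -0.40 for 2 µM AU2-94, -0.54 for 1 µM atirmociclib and -0.30 for 2 µM atirmociclib (adjusted p at most 0.0428). For LDHB the difference was -0.25 for 1 µM AU2-94, -0.30 for 1 µM atirmociclib, -0.28 for 2 µM atirmociclib and -0.32 for ribociclib (adjusted p at most 0.00281). For MPC1 the difference was -0.58 for 2 µM AU2-94 (adjusted p = 0.0158). For MPC2 the difference was -0.62 for 1 µM AU2-94, -0.47 for 2 µM AU2-94, -0.59 for 1 µM atirmociclib, -0.38 for 2 µM atirmociclib and -0.42 for ribociclib (adjusted p at most 0.000794). For PGD the difference was -0.23 for 1 µM AU2-94, -0.29 for 1 µM atirmociclib, -0.37 for 2 µM atirmociclib and -0.24 for ribociclib (adjusted p at most 0.00902). For TALDO1 the difference was -0.39 for 1 µM AU2-94, -0.31 for 2 µM AU2-94, -0.33 for 1 µM atirmociclib and -0.20 for 2 µM atirmociclib (adjusted p at most 0.0406). With the replicate block ENO1 with 1 µM AU2-94 (adjusted p = 0.0523) and ALDOA with 1 µM atirmociclib (adjusted p = 0.0556) did not pass. Of the 38 differences 28 passed whichever library was left out. Those of ENO1 with 1 µM AU2-94 and 2 µM atirmociclib, MPC1 with 2 µM AU2-94, PFKFB2 with 2 µM AU2-94, TPI1 with 2 µM AU2-94 and 1 µM atirmociclib, ALDOA with 1 µM atirmociclib, HK1 with 1 µM atirmociclib, PFKL with 2 µM atirmociclib, and TALDO1 with 2 µM atirmociclib did not pass without at least 1 library (adjusted p = 0.0518 to 0.196), MPC1 without vehicle library 2 of 72 h and PFKL without vehicle library 2 or 2 µM atirmociclib library 3 of 24 h, and the others without any one of 7 to 9 of the 12 libraries compared. In PFKFB2, library 2 of 2 µM AU2-94 at 24 h had a normalised count of 1683 against 792.9 and 854.7 in its group, and without it the difference was -0.41 (adjusted p = 0.196).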

How the results depend on the processing

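None of the 200 calls of single genes against vehicle changed direction under any alternative run. Over the alternatives that kept all libraries, 1680 values stayed past the threshold and 107 did not, and with 1 library left out 1047 did and 153 did not. In all 49 of the 200 calls were lost without at least 1 library, 34 of them at 24 h. The cause was not tested for any of these.

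With quantile normalisation in place of the authors' scaling, 12 genes (19 in the report) were higher with 2 µM atirmociclib, 24 h, and 1 (0) was lower with 2 µM AU2-94, 24 h. It left 0 genes (1) and 2 (5) different between atirmociclib and AU2-94 at 1 and 2 µM, 24 h, 1 (3) between ribociclib and AU2-94 and 1 (0) between atirmociclib and ribociclib at 72 h, 0 (2) between the atirmociclib doses at 72 h, and 1 (2) between vehicle at 72 h and 24 h. With every library scaled to an equal total, 3 genes (0) were lower with 2 µM AU2-94 and 1 (0) with 2 µM atirmociclib, 24 h. Higher with 2 µM atirmociclib, 24 h, were 13 (19). The counts between atirmociclib and AU2-94 were then 0 (1) and 3 (5) at 1 and 2 µM, 24 h, and 7 (4) at 1 µM, 72 h, that between ribociclib and AU2-94 at 72 h was 1 (3), that between atirmociclib and ribociclib at 72 h 1 (0), that between atirmociclib doses at 72 h 0 (2) and that of vehicle over time 1 (2). Equal totals moved the median of all genes by -0.104 to 0.0735 and quantile normalisation by -0.0608 to 0.0595 on the log2 scale. Without the variance trend, 9 genes (16) were higher with ribociclib at 24 h and 2 (4) lower with 1 µM atirmociclib, 72 h. With only the 2 groups compared in the fit, 0 (1) were lower with 1 µM AU2-94, 24 h. With the replicate block, that is the pairing of libraries by number, 0 (1) differed between atirmociclib and 1 µM AU2-94, 24 h, 1 (0) between atirmociclib and ribociclib at 72 h and 1 (2) between the atirmociclib doses at 72 h. The block changed 8 calls in all, given beside their results, and no other call of the 36 genes.

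With 1 library left out at a time, the count higher at 24 h ran from 8 to 14 with ribociclib and from 13 to 23 with 2 µM atirmociclib. Those lower ran from 0 to 2 (1 µM AU2-94, 24 h), 0 to 1 (2 µM AU2-94, 24 h) and 2 to 4 (1 µM atirmociclib, 72 h), and that of time effects with 2 µM AU2-94 from 5 to 8. Between atirmociclib and AU2-94 the counts ran from 0 to 2 and 1 to 6 at 1 and 2 µM, 24 h, and from 1 to 4 and 5 to 11 at 72 h. Between atirmociclib and ribociclib they ran from 1 to 4 at 24 h and 0 to 2 at 72 h, between ribociclib and AU2-94 from 0 to 1 and 0 to 4, between the atirmociclib doses at 72 h from 0 to 1, and in vehicle over time from 0 to 2.

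With 3 libraries a group, changes within the spread of replicates were not detectable, and low genes such as SLC2A3 were limited by their counts.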
